A study of Mus musculus with 3 samples.

Results

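The 10 genes described here restrain MAP kinase signalling, and they were followed across 3 CD8+ T cell libraries from mouse spleen. They were chosen by name as the rows of the deposited count table for 6 dual-specificity phosphatases (Dusp1, Dusp2, Dusp4, Dusp5, Dusp6 and Dusp10), 2 Sprouty genes (Spry1 and Spry2) and 2 Spred genes (Spred1 and Spred2). All 10 were found among the 25638 genes of the table, and each reached 5 CPM (read counts scaled to library size) in at least 1 library. The groups were effector memory, central memory and naive T cells, all labelled wild type and untreated, with 1 RNA-seq library each. Effector memory cells circulate through blood and tissue, central memory cells recirculate through lymph nodes, and naive cells have yet to meet antigen. The labels give no age, sex or number of mice for a library, and no sort markers. With 1 library a group there is no replicate check and no test, so every difference below is one between single libraries. Ratios carry 95% exact counting intervals, which cover counting error only.

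MAP kinases (ERK, p38 and JNK) are activated when a threonine and a tyrosine in their activation loop are both phosphorylated. The dual-specificity MAP kinase phosphatases remove both phosphates, and many are themselves transcribed in response to the kinases they silence. Sprouty proteins restrain the route from receptors through Ras to ERK, and Spred proteins bring the Ras GTPase activating protein neurofibromin to the membrane. In T cells, ERK is activated downstream of the T cell receptor and of cytokine receptors.

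The bases upstream of Dusp1, Dusp2 and Dusp5 are shown because these phosphatases had the clearest opposite patterns in the libraries and held most of the motif matches. Sequences are from RefSeq on GRCm38.p6, 5′ to 3′ on the strand of the gene, and leave out bases in annotated exons of protein-coding genes. Of the 10 members, 9 matched an entry, and the 250 bases before the start were searched on both strands. Capitals mark matches to the cAMP response element TGACGTCA, its shorter form TGACG, the EGR site GCGNGGGCG, the E-box CACGTG or the SRF CArG box. The shorter form lies within the full element, so they overlap in Dusp1.
Dusp1 (chr17:26508520-26508722, minus strand, naive-high): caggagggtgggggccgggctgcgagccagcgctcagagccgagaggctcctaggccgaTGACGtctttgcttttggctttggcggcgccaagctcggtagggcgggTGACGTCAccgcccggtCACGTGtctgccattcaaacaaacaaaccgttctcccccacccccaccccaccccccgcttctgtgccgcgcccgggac
Dusp2 (chr2:127335909-127336158, plus strand, naive-high): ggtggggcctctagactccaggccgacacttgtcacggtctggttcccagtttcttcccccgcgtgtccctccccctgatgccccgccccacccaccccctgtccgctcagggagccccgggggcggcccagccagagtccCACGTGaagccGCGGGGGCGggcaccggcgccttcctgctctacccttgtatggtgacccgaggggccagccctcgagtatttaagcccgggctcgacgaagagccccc
Dusp5 (chr19:53528895-53529108, plus strand, effector memory-high): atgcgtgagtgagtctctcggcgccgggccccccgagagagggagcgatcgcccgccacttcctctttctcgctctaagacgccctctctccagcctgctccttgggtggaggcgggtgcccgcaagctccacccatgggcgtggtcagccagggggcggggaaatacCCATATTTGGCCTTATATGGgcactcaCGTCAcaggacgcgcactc

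The full cAMP response element was found in 1 of the 9 members, Dusp1, against 1.55% of 32817 windows of the same length in the RefSeq table. The SRF CArG box was found in 1 of 9, Dusp5, as 2 adjacent matches, against 1.47% of windows. The EGR site was found in 1 of 9, Dusp2 (4.70% of windows), and the E-box in 2 of 9, Dusp1 and Dusp2 (6.02%). The shorter form was found in 3 of 9, Dusp1, Dusp5 and Spred2 (17.7%). The AP-1 site TGANTCA (6.75% of windows), the ETS site CCGGAAG (6.90%) and the TATA box TATAAA (12.4%) matched none of the 9 windows. A match describes the letters and is not a measured binding site.

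The libraries held 33087462 counts for effector memory, 35846315 for central memory and 26876909 for naive. For ratios, a count of 0 was set to 3 counts. These equal 0.0938 CPM in effector memory, 0.0837 in central memory and 0.108 in naive. All 5 CD8 T cell markers, among them Cd8a and Cd3e, were above 5 CPM in every library, though Cd8a was 4.57-fold lower and Cd8b1 3.83-fold lower in effector memory than in naive. The 7 B cell markers summed to 2.81 CPM in effector memory (5 at 0), 6.50 in central memory (2 at 0) and 35.7 in naive (none at 0). The 7 myeloid markers summed to 22.3 CPM in effector memory (5 at 0), 7.98 in central memory (2 at 0) and 9.06 in naive (1 at 0), with Cd68 at 21.1 CPM in effector memory, 4.05 in central memory and 3.38 in naive. The 4 dendritic cell markers summed to 12.5 CPM in effector memory, 2.23 in central memory and 2.95 in naive, nearly all from Xcr1 in effector memory, with Flt3 and Siglech at 0 in each library. The 5 NK cell markers summed to 93.1 CPM in effector memory, 132.6 in central memory and 39.0 in naive, Eomes giving the largest part, and Ncr1, a receptor typical of NK cells, stood at 0 CPM in effector memory, 12.2 in central memory and 0 in naive. The 4 proliferation markers summed to 3599 CPM in effector memory, 642 in central memory and 13.0 in naive. The 10 genes of a tissue handling response summed to 416 CPM in effector memory, 339.7 in central memory and 965 in naive. They did not all move together. Fos stood at 1.63 CPM in effector memory, 0.614 in central memory and 122 in naive. Atf3 went the other way, at 5.13 CPM in effector memory, 0.447 in central memory and 0 in naive. Jun and Ier2 were within 2-fold between effector memory and naive. The receptor segment Trbv12-1 made up 98.4% of Trbv counts in effector memory, 99.6% in central memory and 7.13% in naive. In each memory library 1 Trbv segment reached 5 CPM, beside 19 in naive. The labels, which give wild type and untreated, do not account for the narrow receptor use of the memory libraries. Receptor use and the level of the proliferation markers thus differed together with memory against naive for every member. These cannot be told apart here. In bulk RNA, fewer cells of a type and less RNA per cell cannot be told apart.

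**Figure D1:**
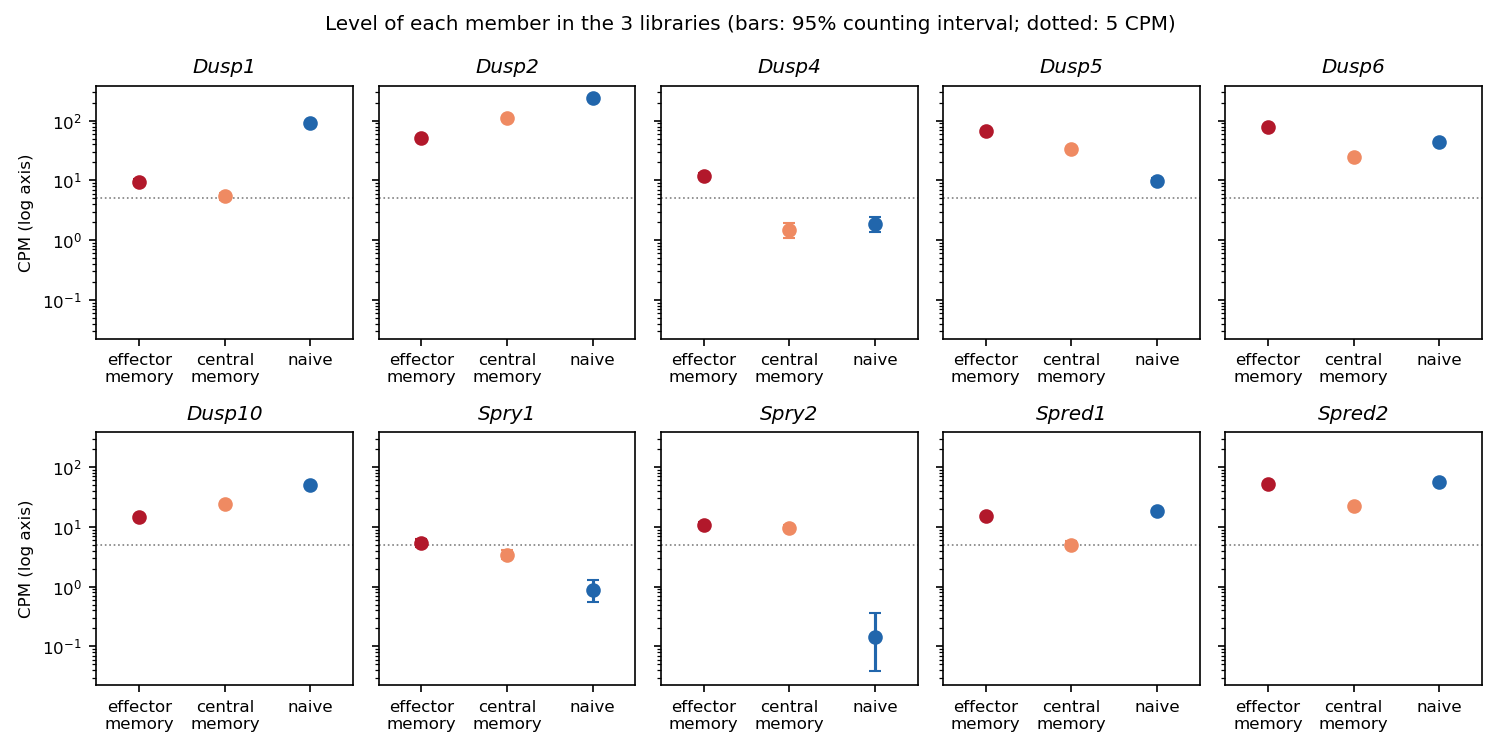
Level of each of the 10 members in CPM (log axis) in the effector memory, central memory and naive libraries; points are single libraries, bars are 95% counting intervals and the dotted line is 5 CPM. Dusp1, Dusp2 and Dusp10 were highest in naive, Dusp4, Dusp5 and Dusp6 in effector memory, and Spry2 was lowest in naive at 0.144 CPM.

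The 4 phosphatases that act in the nucleus did not move together. Dusp1, which encodes MKP1, an immediate early phosphatase that prefers p38 and JNK (ENSMUSG00000024190.7, chromosome 17, 26505590 to 26562128), stood at 9.26 CPM in effector memory (296 counts), 5.44 CPM in central memory (195 counts) and 91.1 CPM in naive (2534 counts). Only the naive library was high. Dusp1 was 9.84-fold lower in effector memory than in naive (interval 8.72 to 11.1) and 16.7-fold lower in central memory than in naive (interval 14.5 to 19.5). Between the memory libraries it was 1.70-fold higher in effector memory (interval 1.41 to 2.05), under the 2-fold limit. The summed level of the tissue handling genes was also highest in naive, though Atf3 of that list was highest in effector memory. The part of these genes in the Dusp1 difference was not tested.

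Dusp2, which encodes PAC1, a phosphatase of blood cells that is induced on activation (ENSMUSG00000027368.6, chromosome 2, 127336159 to 127338376), was the member with the highest level per length in naive and in central memory. It stood at 51.5 CPM in effector memory (1646 counts), 110.0 CPM in central memory (3942 counts) and 239 CPM in naive (6658 counts). Each library was about 2-fold from the next. Dusp2 was 4.65-fold lower in effector memory than in naive (interval 4.40 to 4.91), 2.17-fold lower in central memory than in naive (interval 2.09 to 2.26) and 2.14-fold lower in effector memory than in central memory (interval 2.02 to 2.27). Per kilobase of exon it ranked 2037 among genes with a count in effector memory, 756 in central memory and 253 in naive. The summed levels of the B cell markers and of the tissue handling genes were also highest in naive. The part of either in the Dusp2 difference was not tested.

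Dusp4, which encodes MKP2, an inducible nuclear phosphatase (ENSMUSG00000031530.6, chromosome 8, 34807297 to 34819894), stood at 12.04 CPM in effector memory (385 counts), 1.45 CPM in central memory (52 counts) and 1.87 CPM in naive (52 counts). It was high in effector memory only. Dusp4 was 6.44-fold higher in effector memory than in naive (interval 4.81 to 8.78) and 8.29-fold higher than in central memory (interval 6.20 to 11.3). Central memory and naive were both under 5 CPM, and the interval of their ratio held 1 (0.777, interval 0.519 to 1.16). Cd68 and Xcr1, from the myeloid and dendritic cell marker lists, were also highest in effector memory. Of those lists, 5 of 7 myeloid and 2 of 4 dendritic cell markers were at 0 in effector memory. The part of such cells in the Dusp4 difference was not tested.

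Dusp5, a nuclear phosphatase specific for ERK (ENSMUSG00000034765.6, chromosome 19, 53529109 to 53542431), ran in the opposite order to Dusp2. It stood at 66.8 CPM in effector memory (2136 counts), 34.0 CPM in central memory (1219 counts) and 9.74 CPM in naive (271 counts). Dusp5 was 6.86-fold higher in effector memory than in naive (interval 6.04 to 7.81) and 3.49-fold higher in central memory than in naive (interval 3.06 to 4.0). Effector memory was 1.96-fold above central memory (interval 1.83 to 2.11), just under the limit, and 2.07-fold with DESeq2 size factors. An antisense gene on the opposite strand covers 22.1% of the Dusp5 exon bases in GENCODE M21. The strandedness of the counting is not given, so reads of the pair cannot be told apart. The summed level of the proliferation markers had the same order of libraries as Dusp5. Their part in the Dusp5 difference was not tested.

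Dusp6, which encodes MKP3, the ERK phosphatase of the cytoplasm (ENSMUSG00000019960.8, chromosome 10, 99263231 to 99267489), had its lowest level in central memory and its highest in effector memory. It stood at 79.8 CPM in effector memory (2552 counts), 24.6 CPM in central memory (881 counts) and 43.5 CPM in naive (1210 counts). The ratio of effector memory to central memory was 3.24 (interval 3.004 to 3.51), past the limit. Against naive, effector memory was at a ratio of 1.84 (interval 1.71 to 1.97) and central memory at 0.566 (interval 0.518 to 0.617), so neither passed 2-fold although both intervals excluded 1.

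Dusp10, which encodes MKP5, a phosphatase of p38 and JNK (ENSMUSG00000039384.8, chromosome 1, 184013302 to 184075636), followed the order of Dusp2. It stood at 14.5 CPM in effector memory (465 counts), 24.6 CPM in central memory (881 counts) and 50.5 CPM in naive (1405 counts). Dusp10 was 3.47-fold lower in effector memory than in naive (interval 3.12 to 3.86) and 2.05-fold lower in central memory than in naive (interval 1.89 to 2.24). The ratio of effector memory to central memory was 0.591 (interval 0.527 to 0.662).

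Both Sprouty genes were higher in effector memory than in naive, and Spry2 was so in central memory too. Spry2, an inhibitor of receptor signalling to ERK (ENSMUSG00000022114.5, chromosome 14, 105891947 to 105896819), stood at 10.9 CPM in effector memory (348 counts), 9.71 CPM in central memory (348 counts) and 0.144 CPM in naive (4 counts). It had the largest ratios of the 10 members, 75.7-fold higher in effector memory than in naive (interval 29.3 to 279) and 67.6-fold higher in central memory than in naive (interval 26.2 to 249). The wide intervals come from the 4 naive counts. The memory libraries were not apart in Spry2 (ratio 1.12, interval 0.963 to 1.30).

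Spry1, its close relative (ENSMUSG00000037211.12, chromosome 3, 37639947 to 37644598), was less abundant, at 5.38 CPM in effector memory (172 counts), 3.43 CPM in central memory (123 counts) and 0.863 CPM in naive (24 counts). It was 6.24-fold higher in effector memory than in naive (interval 4.05 to 9.999). The ratio of central memory to naive was 3.98 (interval 2.56 to 6.45), with both libraries under 5 CPM. Spry1 also shared its order of libraries with the summed proliferation markers, and their part was not tested. A gene of unverified coding status on the opposite strand covers 24.4% of the Spry1 exon bases and had 0 counts in effector memory, 3 in central memory and 0 in naive.

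The Spred genes had naive highest, effector memory within 2-fold below it, and central memory lowest. Spred2 (ENSMUSG00000045671.17, chromosome 11, 19924375 to 20024026) stood at 53.3 CPM in effector memory (1703 counts), 22.7 CPM in central memory (813 counts) and 57.1 CPM in naive (1589 counts). Spred1 (ENSMUSG00000027351.14, chromosome 2, 117121374 to 117182279) stood at 15.3 CPM in effector memory (488 counts), 5.08 CPM in central memory (182 counts) and 18.5 CPM in naive (515 counts). In central memory, Spred1 was 3.64-fold lower than in naive (interval 3.07 to 4.34) and Spred2 was 2.52-fold lower (interval 2.31 to 2.74). Effector memory was 3.003-fold above central memory for Spred1 (interval 2.53 to 3.58) and 2.35-fold above it for Spred2 (interval 2.16 to 2.55). Against naive, effector memory was within 2-fold for both genes, at ratios of 0.824 for Spred1 (interval 0.727 to 0.935) and 0.932 for Spred2 (interval 0.870 to 0.999).

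**Figure D2:**
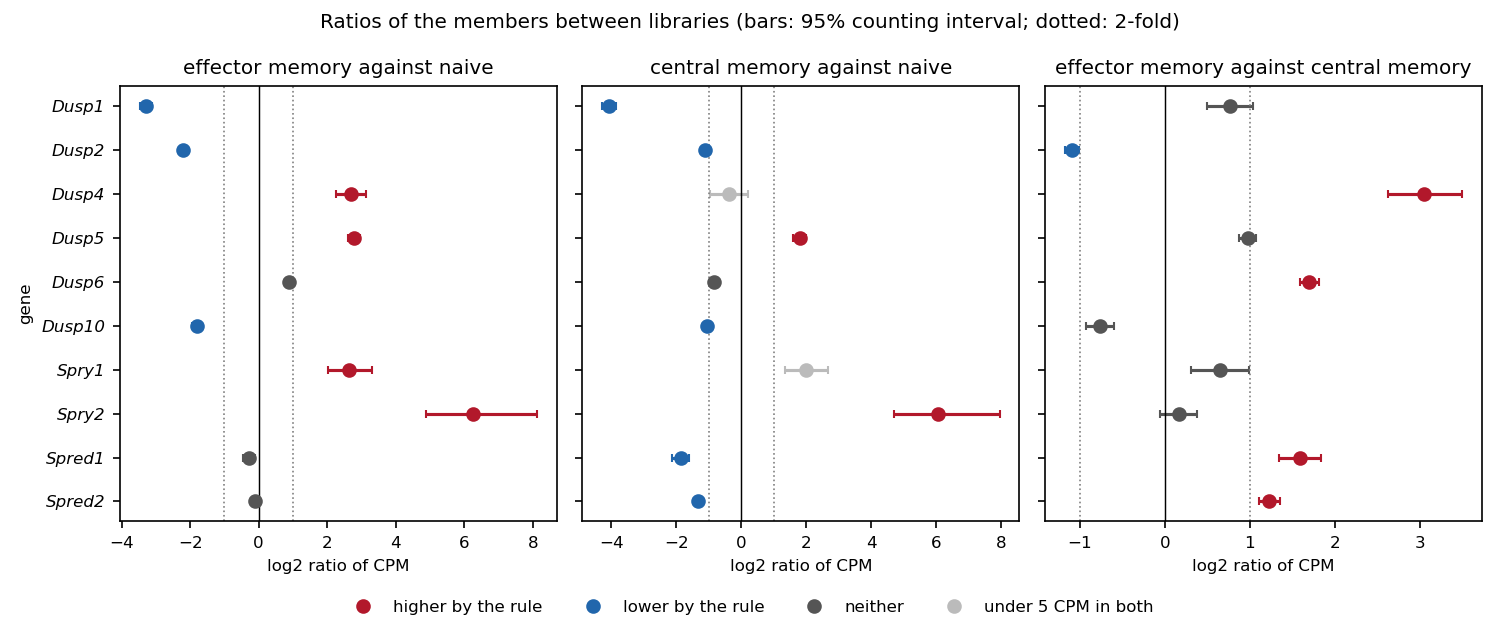
log2 ratio of CPM for each of the 10 members in the 3 comparisons, which set each memory library over naive and effector memory over central memory, with 95% counting intervals as bars and 2-fold as dotted lines; the axis ranges differ between panels. Dusp1, Dusp2 and Dusp10 were lower and Dusp5 and Spry2 higher in both memory libraries against naive, and Dusp4, Dusp6, Spred1 and Spred2 were higher in effector memory than in central memory.

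A gene was called where the higher of the 2 libraries reached 5 CPM, the libraries were 2-fold apart or more, and the interval of the ratio excluded 1. In effector memory against naive, 4 members were called higher (Dusp4, Dusp5, Spry1 and Spry2) and 3 lower (Dusp1, Dusp2 and Dusp10), of 10 that reached 5 CPM, where 37.9% of the 10087 genes at that level were called (22.3% higher and 15.6% lower). Dusp4, Spry1 and Spry2 reached 5 CPM there through effector memory alone, so they could only be called higher. In central memory against naive, 2 of 8 were called higher (Dusp5 and Spry2) and 5 lower (Dusp1, Dusp2, Dusp10, Spred1 and Spred2), beside 16.3% of 9737 genes in either direction (11.2% higher and 5.12% lower). Spry2 passed the level there through central memory alone, and Dusp4 and Spry1 did not reach it. In effector memory against central memory, 4 of 10 were called higher (Dusp4, Dusp6, Spred1 and Spred2) and 1 lower (Dusp2), beside 27.6% of 9975 genes (14.8% higher and 12.8% lower). Dusp4 and Spry1 reached 5 CPM there through effector memory alone. The comparisons with naive share the naive library.

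The median log2 ratio of the members at 5 CPM was 0.39 in effector memory against naive, -1.08 in central memory against naive and 0.87 in effector memory against central memory. Over all genes at that level it was 0.06, 0.14 and -0.06. The first median lay between Dusp6 (log2 ratio 0.876) and Spred2 (-0.101) and does not describe the spread of the members. They ranged from Dusp1 at percentile 2.10 of the genes tested to Spry2 at percentile 97.0.

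Compared per kilobase of exon, the summed level of the 10 MAP kinase phosphatases of the family (the 6 members with Dusp7, Dusp8, Dusp9 and Dusp16) was 97.6 CPM per kb in effector memory, 103.9 in central memory and 198.9 in naive. The genes that made up the sum differed between libraries. Dusp2 gave 26.3% of the sum in effector memory, 52.9% in central memory and 60.1% in naive. Dusp5 gave 27.7% in effector memory, 13.2% in central memory and 1.98% in naive, and Dusp6 gave 26.1% in effector memory, 7.56% in central memory and 6.98% in naive. Effector memory thus had 3 phosphatases at near equal levels where naive had Dusp2 first and Dusp1 second. The share of Dusp1 was 2.86% in effector memory, 1.58% in central memory and 13.8% in naive.

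The 6 Sprouty and Spred genes measured (the 4 members with Spry4 and Spred3) summed to 22.2 CPM per kb in effector memory, 11.6 in central memory and 15.6 in naive. Spred2 led in each library, with 52.0% of the sum in effector memory, 42.3% in central memory and 79.1% in naive. Spry2 gave 23.5% in effector memory and 40.1% in central memory, close to Spred2 there, and 0.441% in naive. The 2 Sprouty members together stood at 7.06 CPM per kb in effector memory, 5.84 in central memory and 0.366 in naive. The 2 Spred members together stood at 13.8 CPM per kb in effector memory, 5.66 in central memory and 15.1 in naive.

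**Figure D3:**
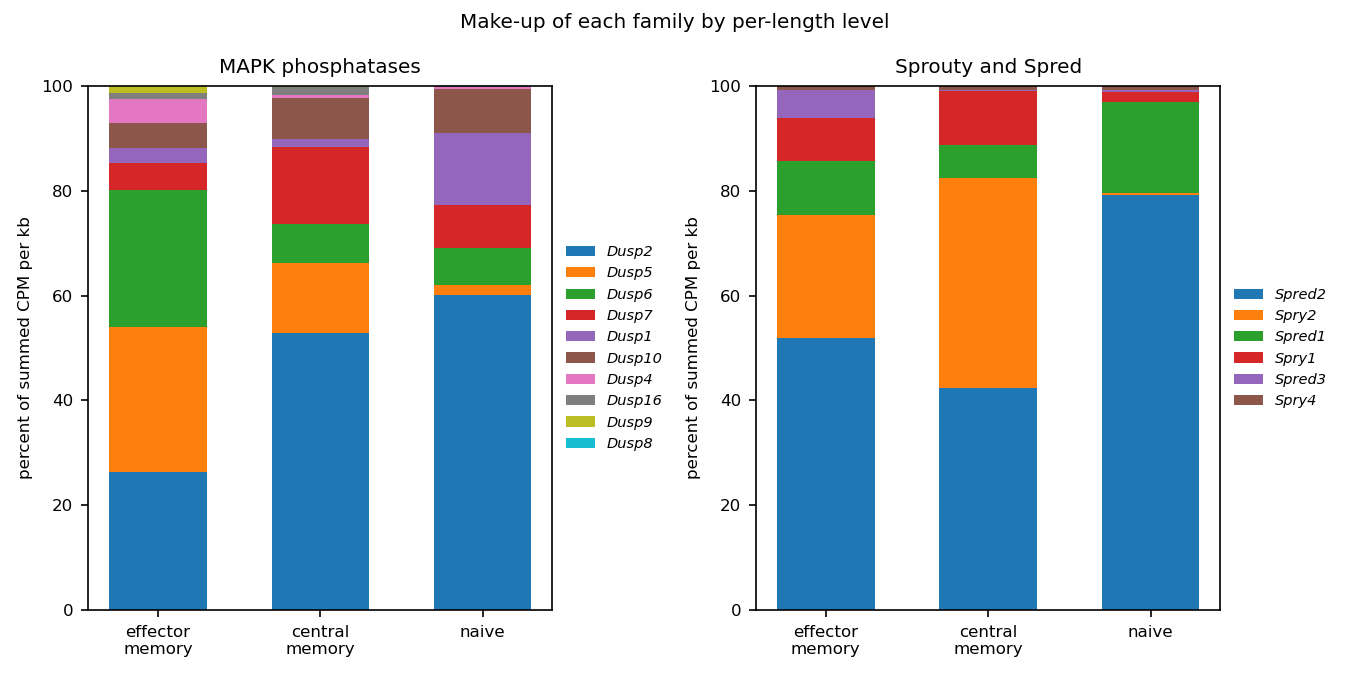
Percent of the summed CPM per kb given by each gene of the MAP kinase phosphatase family (left) and of the Sprouty and Spred family (right) in the effector memory, central memory and naive libraries. Dusp2 gave 26.3% in effector memory, beside 60.1% in naive, and Spry2 gave 40.1% in central memory, beside 0.441% in naive.

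Ratios between members of the same library do not depend on scaling between libraries. Per kilobase, Dusp5 stood at 9.66 times Dusp1 in effector memory (interval 8.55 to 10.9), 8.37 times in central memory (interval 7.19 to 9.79) and 0.143 times in naive (interval 0.126 to 0.162). The pair thus changed places between each memory library and naive. Dusp6 stood at 5.33 times Dusp10 in effector memory (interval 4.83 to 5.90), 0.971 times in central memory (interval 0.884 to 1.07) and 0.836 times in naive (interval 0.774 to 0.904). The interval for this pair held 1 in central memory. Spry2 stood at 0.947 times Spred2 in central memory (interval 0.833 to 1.08), an interval that held 1, against 0.452 times in effector memory (interval 0.402 to 0.508).

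The other MAP kinase phosphatases also differed in order. Dusp7, a cytoplasmic ERK phosphatase, stood at 16.9 CPM in effector memory, 51.0 in central memory and 55.0 in naive, and was 3.26-fold lower in effector memory than in naive (interval 2.96 to 3.61). Dusp16, a JNK phosphatase, stood at 9.63 CPM in effector memory, 13.0 in central memory and 3.23 in naive and was 4.02-fold higher in central memory than in naive (interval 3.20 to 5.10). Dusp9 stood at 3.22 CPM in effector memory, 0.530 in central memory and 0 in naive and Dusp8 at 0.188 CPM in effector memory, 0 in central memory and 0 in naive. Spred3, the third Spred gene, was 25.7-fold higher in effector memory than in naive (interval 12.8 to 60.1), at 7.38 CPM in effector memory, 0.223 in central memory and 0.288 in naive, an order unlike that of Spred1 and Spred2. Spry4 was under 1 CPM in each library.

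Among 13 atypical dual-specificity phosphatases, smaller enzymes most of which lack the MAP kinase binding domain, 7 reached 5 CPM in effector memory or naive, with 4 higher and 2 lower, beside 22.3% of all genes higher and 15.6% lower. Dusp14 and Dusp3 reached that level through effector memory alone. Dusp14, which dampens T cell receptor signalling, stood at 10.8 CPM in effector memory and had 0 counts in naive. Set against 3 counts in naive, effector memory was 100.1-fold higher. Dusp3, which encodes VHR, stood at 14.3 CPM in effector memory and 0.216 in naive, a 66.3-fold difference (interval 30.2 to 181.5). Dusp22 was 2.81-fold higher in effector memory than in naive (interval 2.43 to 3.26) and 3.11-fold higher in central memory than in naive (interval 2.70 to 3.59).

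In the RAF-MEK-ERK list, the cascade these enzymes act on, 3 of 11 genes at 5 CPM were higher in effector memory than in naive and none lower (median log2 ratio 0.17), beside 37.9% of all genes called in either direction. In the same list 2 of 11 were higher in central memory than in naive (beside 16.3% of all genes called), and 1 of 11 was higher in effector memory than in central memory (beside 27.6%). Mapk3, which encodes ERK1, stood at 115 CPM in effector memory, 47.4 in central memory and 23.5 in naive and was 4.92-fold higher in effector memory than in naive (interval 4.53 to 5.35). Ksr1, a scaffold of the cascade, was 3.14-fold higher in effector memory than in naive (interval 2.84 to 3.48), and Pebp1, an inhibitor of RAF, was 2.40-fold higher (interval 2.26 to 2.55).

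Of the Ras activation list, 1 of 9 genes was higher in effector memory than in naive and 2 lower. Over all genes, 22.3% were higher there and 15.6% lower. None of 9 passed in central memory against naive, beside 16.3% of all genes called. Rasgrp4, a Ras exchange factor, was 5.41-fold higher in effector memory than in naive (interval 4.73 to 6.21), while Rasgrp2 was 2.35-fold lower and the exchange factor Sos1 2.25-fold lower. The Ras GTPase activating proteins had 3 higher and 4 lower of 9 in effector memory against naive, beside the same 22.3% and 15.6%. Dab2ip stood at 15.6 CPM in effector memory and 0.144 in naive, a ratio of 108.3 (interval 42.0 to 399), and Rasal1 was 12.2-fold lower at 1.56 CPM in effector memory and 19.0 in naive. Nf1, the neurofibromin that Spred proteins bind, stood at 21.04 CPM in effector memory, 9.77 in central memory and 18.0 in naive and was 2.15-fold higher in effector memory than in central memory (interval 1.89 to 2.46), the same order of effector memory and central memory as Spred1 and Spred2.

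Other transcripts known to be induced by ERK went both ways, with more lower than higher in each memory library against naive. In effector memory against naive, 3 of 12 were higher and 6 lower (median log2 ratio -0.99), and in central memory against naive 1 of 11 was higher and 6 lower (median -1.18), beside medians of 0.06 and 0.14 over all genes. Of all genes, 22.3% were higher and 15.6% lower in effector memory against naive, and 11.2% and 5.12% in central memory against naive. Egr1, Fos, Fosb, Jun, Junb and Ier2 are also on the tissue handling list, whose summed level was highest in naive, and the part of that response was not tested. Egr2, Egr3, Fos and Fosb reached 5 CPM in effector memory against naive through naive alone, so they could only be called lower. Ier3 and Phlda1 did so through effector memory alone and could only be called higher. In central memory against naive, Fos and Fosb reached 5 CPM through naive alone and Ier3 through central memory alone. Egr1 stood at 8.91 CPM in effector memory, 24.8 in central memory and 66.8 in naive, and Egr2 was 91.4-fold lower in effector memory than in naive. Ier3 went the other way, at 55.5 CPM in effector memory, 15.1 in central memory and 2.12 in naive, 26.2-fold higher in effector memory than in naive (interval 20.2 to 34.5), and Fosl2, an AP-1 subunit, was 4.35-fold higher (interval 4.01 to 4.73). Among ETS and SRF factors, none of 7 was higher and 4 were lower in effector memory against naive. Over all genes, 22.3% were higher there and 15.6% lower. The lower factors included Ets1 (4.31-fold lower), Elk4 (4.52-fold lower) and Srf (2.15-fold lower, at 58.7 CPM in effector memory, 106 in central memory and 126 in naive).

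**Figure D4:**
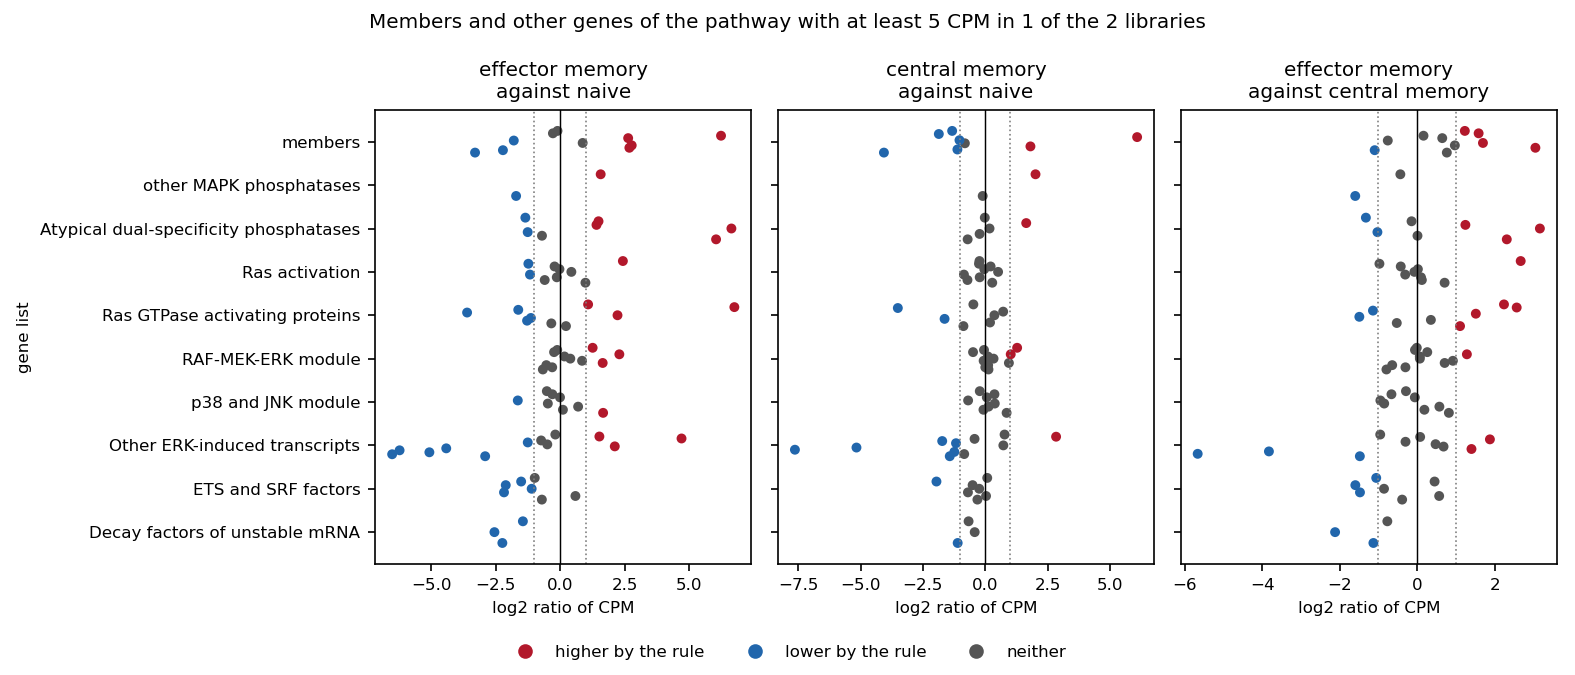
log2 ratio of CPM in the 3 comparisons for the members and the genes of 9 other lists with at least 5 CPM in 1 of the 2 libraries; each point is a gene, coloured by whether it was called, dotted lines are 2-fold and the axis ranges differ between panels. Among the RAF-MEK-ERK genes 3 of 11 were called in effector memory against naive, beside 37.9% of all genes. Members and ERK-induced transcripts spread to both sides.

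Genes with the most similar pattern were found for each member by the distance between log2 ratios to naive over the 2 memory libraries, among genes whose highest CPM was within 2-fold of that of the member. For Dusp2 the nearest of 2138 genes was Zfp36, which encodes tristetraprolin, a protein that destabilises inducible mRNA (distance 0.025 on the log2 scale), at 37.1 CPM in effector memory, 81.2 in central memory and 175 in naive. For Dusp1 it was Sh3pxd2a (distance 0.35), then Rgcc (0.61), for Dusp10 Klhdc1 (0.033) and for Dusp6 Rgs1 (0.21). Dusp4 was nearest to Plcxd1 (0.076) and to the chemokine receptor gene Xcr1 (0.081), which is also on the dendritic cell marker list, and Dusp5 to Fanca (0.084). Spry1 was nearest to Mcub (0.044). Spry2 was nearest to Sema4c (0.12) and Nrgn (0.15), both with no count in naive and placed at their bound, and then to Tigit, an inhibitory receptor (0.17), at 21.1 CPM in effector memory, 17.9 in central memory and 0.252 in naive. Spred1 was nearest to Tnfrsf10b (0.20) and Spred2 to Cxcr4, a chemokine receptor (0.26), at 40.4 CPM in effector memory, 13.5 in central memory and 39.3 in naive. Each distance rests on 3 single libraries.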

How the data were processed

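RNA was extracted with Trizol and libraries were made with an Illumina TruSeq kit and sequenced on an Illumina NovaSeq, per the labels' protocols. The authors deposited whole-number read counts per gene symbol, in the columns TEM, TCM and TN, which were read as abbreviations of the 3 sample titles. CASAVA, HISAT2 2.0.5, featureCounts 1.5.0-p3 and mm10 are named in the submitters' processing notes. How strand and multi-mapping reads were handled, and which annotation was used, is not given in those sources.

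Counts were scaled to CPM with edgeR 4.0.16 (R 4.3.3) by TMM factors, which came to 0.967 for effector memory, 0.999 for central memory and 1.04 for naive. Ratios have 95% Clopper-Pearson intervals, and a library at 0 gives a bound against 3 counts. A call needed 5 CPM in 1 of the libraries, a 2-fold difference and an interval excluding 1, a rule of size that was tested on simulated data. Each member was named, with the called genes of other lists that had large ratios. Some genes that this rule takes are not reported here. Levels between genes were compared per kilobase of union exon length in GENCODE M21, where 98.7% of gene names were found. Motifs were searched in RefSeq promoter windows. Members, lists and rules were chosen with earlier results of these data known. Alternatives were scaling by upper quartile, by DESeq2 1.42.0 or by total counts, other minimum levels and ratios, log2(CPM + 1) and longest transcripts. Python 3.11.15 was used with SciPy 1.17.1, NumPy 2.4.6, pandas 2.3.3 and Matplotlib 3.10.9.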

Additional observations from a re-analysis of the deposited data

How the results depend on the processing

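The order of the 3 libraries was the same for all 10 members under total counts, DESeq2 size factors and upper quartile factors. Of the member calls, the scalings changed 1, Dusp5 in effector memory against central memory, which passed with DESeq2 size factors (2.07-fold). Other scalings moved the median log2 ratio of all genes by at most 0.12 in size, the most with upper quartile factors in central memory against naive (shift -0.12). Other limits moved more. For effector memory against naive, a minimum of 20 CPM left 1 member higher and 11 listed pathway genes higher. A ratio of 1.5 gave 2649 genes lower in all, and a ratio of 4 gave 1133 higher and 524 lower, with 9 and 10 pathway genes. For central memory against naive, a minimum of 1 CPM gave 937 genes lower and 12 pathway genes higher. There a minimum of 20 CPM left 1 member higher, 544 genes higher and 286 lower. A ratio of 1.5 gave 2143 genes higher and 1051 lower, with 13 and 18 pathway genes, and a ratio of 4 gave 509 and 193, with 1 member in each direction and 2 and 3 pathway genes. For effector memory against central memory, a minimum of 20 CPM left 2 members and 7 pathway genes higher. A ratio of 1.5 gave 7 members higher and 2 lower, 2396 genes higher and 2528 lower, and 24 pathway genes lower. A ratio of 4 gave 1 member higher and 0 lower, 635 and 289 genes, and 6 and 3 pathway genes. At a minimum of 20 CPM or a ratio of 4 the rule is stricter by construction. On log2(CPM + 1) the difference for Spry2 in effector memory against naive was 3.38, beside a log2 ratio of 6.24. No paired analysis was possible because each group has 1 library. Depth limits Spry2 in naive (4 counts), Spry1 in naive (24 counts) and Dusp4 outside effector memory (52 counts each).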

Other observations

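The p38 and JNK list, which holds target kinases of Dusp1 and Dusp10 and the kinases that activate them, had 8 genes at 5 CPM. Of these 1 was higher and 1 lower in effector memory against naive, beside 37.9% of all genes called, and none passed in central memory against naive (16.3% of all genes) or in effector memory against central memory (27.6%). Map2k3, which activates p38, was 3.18-fold higher in effector memory than in naive (interval 2.92 to 3.46), at 78.8 CPM in effector memory and 24.8 in naive. Mapk8, which encodes JNK1, was 3.12-fold lower, at 12.3 CPM in effector memory and 38.4 in naive. Mapk14, which encodes the main p38 kinase, stood at 124 CPM in effector memory, 152 in central memory and 178 in naive. Neither gene of the ERK5 module, Map2k5 and Mapk7, passed in any comparison.

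The 3 decay factors of the tristetraprolin family, which bind AU-rich mRNA, were each lower in effector memory than in naive. Of all genes, 15.6% were called lower there. Zfp36 was 4.72-fold lower, Zfp36l1 5.84-fold lower, at 45.9 CPM in effector memory, 199 in central memory and 268 in naive, and Zfp36l2 2.72-fold lower. Zfp36 was the only one of them past 2-fold in central memory against naive (2.16-fold lower). Of 10 other negative regulators, 3 of which stand in the lists above too (Nf1, Rasa1 and Pebp1), 3 of 9 at 5 CPM were higher and 1 lower in effector memory against naive. Over all genes, 22.3% were higher there and 15.6% lower. Dok2, an adaptor that restrains Ras, was 2.95-fold higher in effector memory than in naive (interval 2.79 to 3.11) and 3.04-fold higher in central memory than in naive (interval 2.88 to 3.21). Cbl, a ubiquitin ligase, was 2.69-fold lower in effector memory than in naive, at 208 CPM in effector memory and 558 in naive, and Cblb was 2.03-fold higher in central memory than in naive, at 310 CPM in central memory and 153 in naive.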
